A study of Mus musculus with 8 samples.

Results

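The apolipoproteins that hepatocytes make for plasma lipoproteins were followed as 10 genes: Apoa1, Apoa2, Apoa4, Apoa5, Apob, Apoc1, Apoc2, Apoc3, Apoe and Apom. They were matched by gene symbol in the platform annotation, among the 12393 genes that had a probe set with a single symbol. The list of genes was drawn up with earlier results of these data known. All 10 were measured, by 15 of the 22626 probe sets that were not controls, and all 15 lay above the filter on dim probe sets. The study asked what the oxysterol receptor LXR alpha does in liver when its gene is delivered, when an agonist is given, and when both are combined. RNA from 8 mouse livers was hybridised to oligonucleotide arrays, with 1 mouse per array and 2 mice in each of 4 groups.

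The 4 groups were the human LXR alpha transgene with T0901317, the same transgene with vehicle, GFP with T0901317, and GFP with vehicle. T0901317 (T09 in the labels) is a synthetic LXR agonist, injected intraperitoneally at 5 mg/kg, and both it and the vehicle were given for 3 days. Every mouse, controls included, carried the same gene deletion on a C57B6 background and was 8 months old. All had been given an adeno-associated virus (AAV2.8) when 10 weeks old, and their Western diet lasted 12 weeks. In each vector the human thyroxine binding globulin promoter, which is liver specific, drove the transgene, so GFP mice carried the same virus and promoter.

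Apolipoproteins are the proteins of lipoprotein particles. Apolipoprotein B is the scaffold on which the liver builds very-low-density lipoprotein (VLDL), the A proteins and apolipoprotein M sit mainly on high-density lipoprotein (HDL), and the C proteins and apolipoprotein A-V set how fast lipoprotein lipase empties a particle of triglyceride. Apolipoprotein E is the ligand that liver receptors bind. In macrophages and adipose tissue, the gene cluster that holds Apoe, Apoc1 and Apoc2 is a known target of LXR, and liver LXR is known for driving lipid synthesis and VLDL secretion.

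The tissue label was met by its markers: the 7 of 10 hepatocyte markers that were tested were bright on all arrays, albumin lying between 19677 and 31022. The arrays had median intensities between 21.0 and 23.2. RNA quality differed between groups. The ratio of the 3′ to the 5′ probe set of β-actin, which rises as RNA is shortened or labelled less fully, was 2.75 and 36.3 with LXR alpha and T0901317, 2.61 and 3.08 with LXR alpha and vehicle, 7.56 and 11.04 with GFP and T0901317, and 2.21 and 2.08 with GFP and vehicle. Of the 4 T0901317 arrays, 3 stood above every vehicle array. The same ratio for Gapdh was 1.27 and 19.7, 1.16 and 1.14, 2.92 and 5.12, and 1.06 and 1.07 in the same order of groups. On it all 4 T0901317 arrays stood above every vehicle array, so RNA quality moved with the treatment in these data. The 5′ control probe set of 18S ribosomal RNA read 31.4 and 25.5, 434 and 1398, 16.6 and 8.37, and 4052 and 3668 in the same order of groups. It was thus low on all 4 T0901317 arrays, as were the middle and 3′ probe sets of 18S. The 5′ probe set also differed between the vehicle groups, being higher with GFP. With vehicle, the middle probe set overlapped, at 245 and 488 with LXR alpha and 638 and 302 with GFP. The 3′ probe set was lower with GFP, at 431 and 262, than with LXR alpha, at 513 and 485. The mouse probe set of the LXR alpha gene, Nr1h3, read 163 and 62.6 with LXR alpha and T0901317, 183 and 218 with LXR alpha and vehicle, 75.8 and 98.0 with GFP and T0901317, and 128 and 170.0 with GFP and vehicle. Its log2 difference for LXR alpha against GFP was 0.44 with vehicle (adjusted p = 0.963 by limma). The transgene was human, and how far this mouse probe set reads human RNA was not tested, so it does not check the labels.

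The promoters of the 3 members with the widest range over the arrays (Apoa4, Apob and Apoc2) are shown because the largest group differences in the family came from these genes. Each is the stretch from 250 bases before to 50 bases after the gene's start in RefSeq on build GRCm38.p6, on the gene's own strand: Apoa4 at chr9:46240594-46240893 on the plus strand, Apob at chr12:7977427-7977726 on the plus strand and Apoc2 at chr7:19677892-19678191 on the minus strand. Capitals mark matches to AGGTCA, the half-site letters that LXR and other nuclear receptors can bind, and to TATAAA, the TATA box letters, each searched on both strands.
Apoa4: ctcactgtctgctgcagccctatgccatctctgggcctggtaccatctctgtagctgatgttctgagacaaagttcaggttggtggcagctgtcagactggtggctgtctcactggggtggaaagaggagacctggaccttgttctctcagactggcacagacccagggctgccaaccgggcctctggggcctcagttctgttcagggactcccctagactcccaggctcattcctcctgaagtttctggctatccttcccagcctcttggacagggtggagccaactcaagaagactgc
Apob: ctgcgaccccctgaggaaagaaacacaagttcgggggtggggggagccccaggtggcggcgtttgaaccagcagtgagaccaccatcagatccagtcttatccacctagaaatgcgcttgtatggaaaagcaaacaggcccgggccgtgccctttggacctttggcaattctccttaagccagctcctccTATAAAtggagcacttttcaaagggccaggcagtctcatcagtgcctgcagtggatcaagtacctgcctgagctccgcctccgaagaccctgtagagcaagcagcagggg
Apoc2: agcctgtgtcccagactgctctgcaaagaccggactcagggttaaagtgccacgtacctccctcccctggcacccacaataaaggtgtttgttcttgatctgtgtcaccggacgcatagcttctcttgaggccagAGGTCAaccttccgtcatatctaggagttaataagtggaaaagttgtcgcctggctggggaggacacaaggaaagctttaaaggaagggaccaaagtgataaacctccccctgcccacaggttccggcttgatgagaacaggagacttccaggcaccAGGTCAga
The window of Apob held TATAAA once, on the gene's strand, and that of Apoc2 held AGGTCA at 2 places on its strand, while that of Apoa4 held no match. The 2 motifs share no overlapping match in these windows. Of the 10 members, 8 had a promoter in the table. These 8 had 12 promoters. AGGTCA was found in 2 of the 12, of Apoa2 and Apoc2, and in 16.3% of 32851 mouse promoters of this length. TATAAA was found in 5 of the 12, of Apoa2, Apoa5, Apob and Apoe, and in 13.6% of all promoters.

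No apolipoprotein passed the test in any comparison. Values below are array intensities on a linear scale, and differences are log2 differences between group means from 1 limma fit of all 8 arrays, with the standard error (SE) and, where given, the 95% interval. The spread was estimated with 4 residual degrees of freedom, and the Benjamini-Hochberg adjustment ran over all 15838 tested probe sets, with an adjusted p under 0.05 as the threshold. Over 7 comparisons and 15 probe sets, limma gave 105 tests. None of them had an adjusted p under 0.05 or an unadjusted p under 0.05. The lowest unadjusted p was 0.0592, for Apob, and the lowest adjusted p was 0.291, for Apoe. The arrays themselves gave few calls. The percentage of all tested probe sets called was 0.00631 for LXR alpha vehicle against GFP vehicle, 0 for T0901317 against vehicle with GFP, 0.0253 for T0901317 against vehicle with LXR alpha and 0 for LXR alpha T0901317 against GFP T0901317. It was 0.568 for T0901317 against vehicle averaged over both transgenes, 0.00631 for LXR alpha against GFP averaged over both treatments and 0.00631 for the interaction. At an unadjusted p under 0.05 these percentages were 5.15, 13.2, 13.2, 2.24, 23.2, 2.66 and 4.77 in the same order. The labels do not say more of the 2 mice in a group than that they are separate samples, so p-values rest on the spread between these samples.

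**Figure D1:**
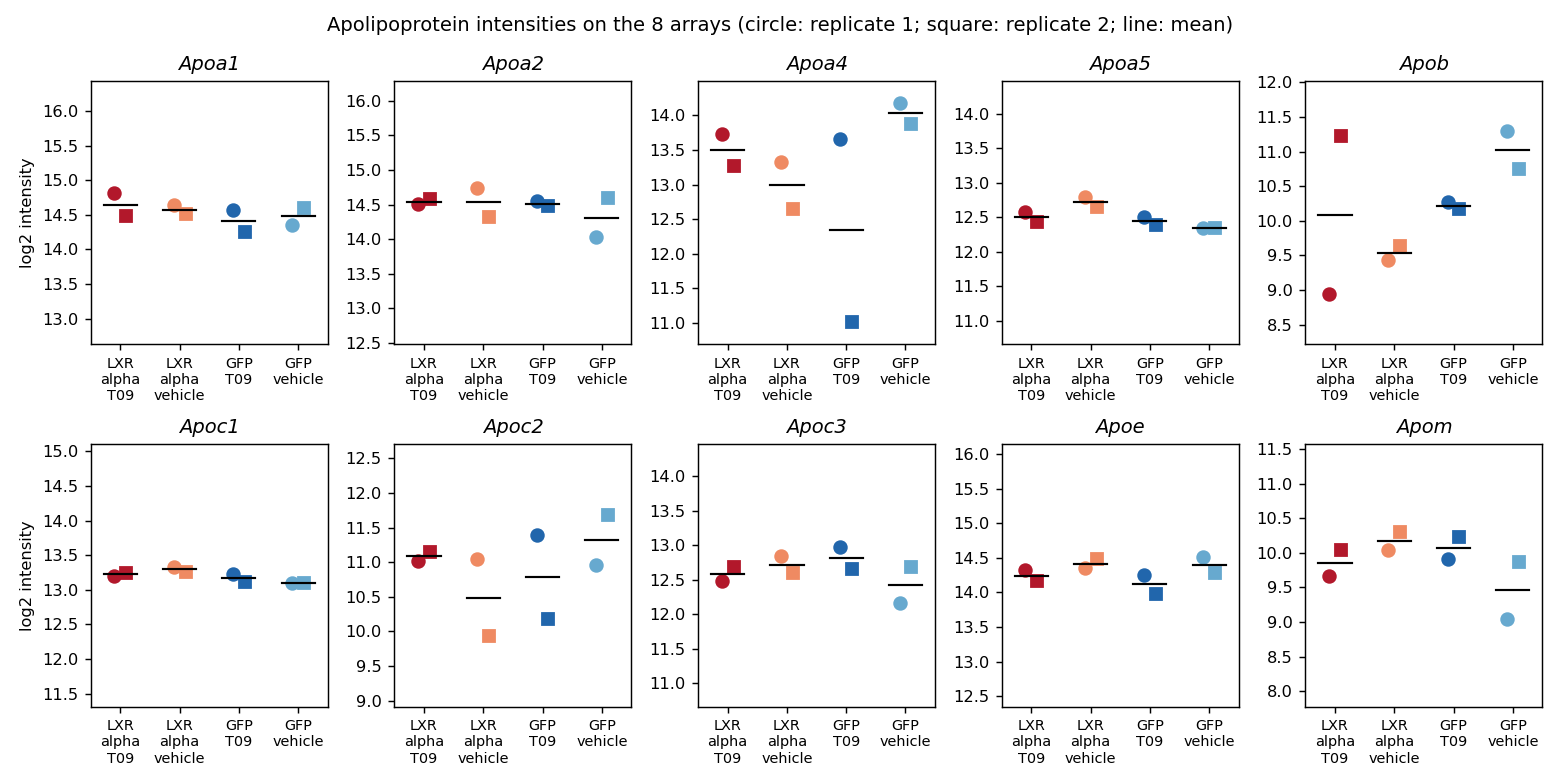
Log2 intensity of the representative probe set of each apolipoprotein on each of the 8 arrays (circles, replicate 1; squares, replicate 2; lines, group means), each panel spanning the same log2 height. Apoc1 varies least, over 0.23 on the log2 scale, and Apoa4 most, over 3.17, with a single low array in the GFP T0901317 group.

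Apob, the scaffold of VLDL, varied over 2.34 on the log2 scale. Its intensity was 494 and 2401 in livers with LXR alpha and T0901317, 691 and 792 with LXR alpha and vehicle, 1232 and 1152 with GFP and T0901317, and 2506 and 1720.4 with GFP and vehicle. The 2 LXR alpha vehicle arrays lay below both GFP vehicle arrays, and so did both GFP T0901317 arrays, while the 2 arrays with LXR alpha and T0901317 lay far apart, 1 being the lowest of all 8. With vehicle, LXR alpha against GFP gave a log2 difference of -1.49 (SE 0.66; 95% interval -3.06 to 0.076), or 0.356-fold, at an unadjusted p of 0.0592 and an adjusted p of 0.963 by limma. T0901317 against vehicle gave -0.80 (SE 0.66) with GFP and 0.56 (SE 0.66) with LXR alpha. With the β-actin ratio in the model the first of these was -2.06, and leaving out GFP vehicle replicate 1 made it -0.53. The value with LXR alpha turned on single arrays: it was -0.58 without replicate 2 of the T0901317 group, the array with a β-actin ratio of 36.3, and 1.70 without replicate 1, at an adjusted p of 0.0532 by limma. The β-actin covariate gave -0.53 here as well. In bulk liver RNA, fewer cells of a type and less RNA per cell cannot be told apart. For LXR alpha vehicle against GFP vehicle, 6 of the 7 hepatocyte markers were higher, as were 59.8% of all tested probe sets. The median log2 difference of the markers was 0.35 and their lowest value -0.096. The part of cell numbers in the Apob values was not tested.

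Apoa4, a protein of HDL and of intestinal particles whose liver expression differs widely among mouse strains, had the widest range. Its intensity was 13665 and 9863 with LXR alpha and T0901317, 10285 and 6413 with LXR alpha and vehicle, 12965 and 2063 with GFP and T0901317, and 18593 and 15081 with GFP and vehicle. Both GFP vehicle arrays lay above all 6 others, and 1 GFP T0901317 array lay well below every other array of the study. That low array, replicate 2, had a β-actin ratio of 11.04, and the part of RNA quality in its value was not tested. Against GFP vehicle, log2 differences were -1.04 (SE 0.77) for LXR alpha vehicle and -1.70 (SE 0.77; 95% interval -3.51 to 0.12; adjusted p = 0.410 by limma) for GFP T0901317. These comparisons share the GFP vehicle arrays. Settings other than leaving out single arrays gave -1.70 to -1.20 for the second. Without GFP T0901317 replicate 2 the second value was -0.37, and the interaction of 2.21 (SE 1.08; adjusted p = 1.000 by limma) became 0.88. The other probe set of Apoa4 tracked this one at a Pearson r of 0.955 over the 8 arrays and gave smaller values, -0.57 and -0.92 for the same 2 comparisons, with overlapping arrays in the second.

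The main HDL proteins differed little between groups. Apoa1, the chief protein of HDL and the activator of the enzyme that esterifies its cholesterol, had an intensity of 28723 and 22825 with LXR alpha and T0901317, 25473 and 23306 with LXR alpha and vehicle, 24291 and 19567 with GFP and T0901317, and 20961 and 24901 with GFP and vehicle. Apoa2, the next most abundant HDL protein, had 23185 and 24592, 27435 and 20417, 24034 and 22727, and 16681 and 24679 in the same order of groups. Groups that differ in 1 factor overlapped for both genes on these probe sets. The other 3 probe sets of Apoa1 had both LXR alpha vehicle arrays above both GFP vehicle arrays, with log2 differences of 0.20, 0.096 and 0.21 that did not pass the test. Of these 3, 1 also had GFP T0901317 arrays below GFP vehicle arrays and LXR alpha T0901317 arrays above GFP T0901317 arrays. For T0901317 against vehicle, averaged over both transgenes, the 95% interval of the log2 difference was -0.33 to 0.33 for Apoa1 and -0.29 to 0.51 for Apoa2. For LXR alpha against GFP, averaged over both treatments, the log2 difference was 0.16 (95% interval -0.17 to 0.49) for Apoa1 and 0.13 (95% interval -0.27 to 0.52) for Apoa2. The highest intensity of any probe set was between 26944 and 34333 on the 8 arrays, so both genes were read near the top of the scale, and whether the scale is compressed there was not tested.

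Apom, the HDL protein that carries sphingosine-1-phosphate, had an intensity of 813 and 1055 with LXR alpha and T0901317, 1056 and 1262 with LXR alpha and vehicle, 962 and 1198 with GFP and T0901317, and 530 and 932 with GFP and vehicle. The GFP vehicle arrays were below both the LXR alpha vehicle arrays and the GFP T0901317 arrays. Log2 differences were 0.72 (SE 0.33; unadjusted p = 0.066, adjusted p = 0.963 by limma) for LXR alpha vehicle and 0.61 (SE 0.33) for GFP T0901317, each against GFP vehicle. Without GFP vehicle replicate 1 they were 0.31 and 0.20, and without its replicate 2 they were 1.12 and 1.02. The other probe set of Apom did not share them: it gave 0.12 and -0.067, and correlated with this one at only 0.516 over the 8 arrays. The value for Apom thus depended on the probe set read.

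**Figure D2:**
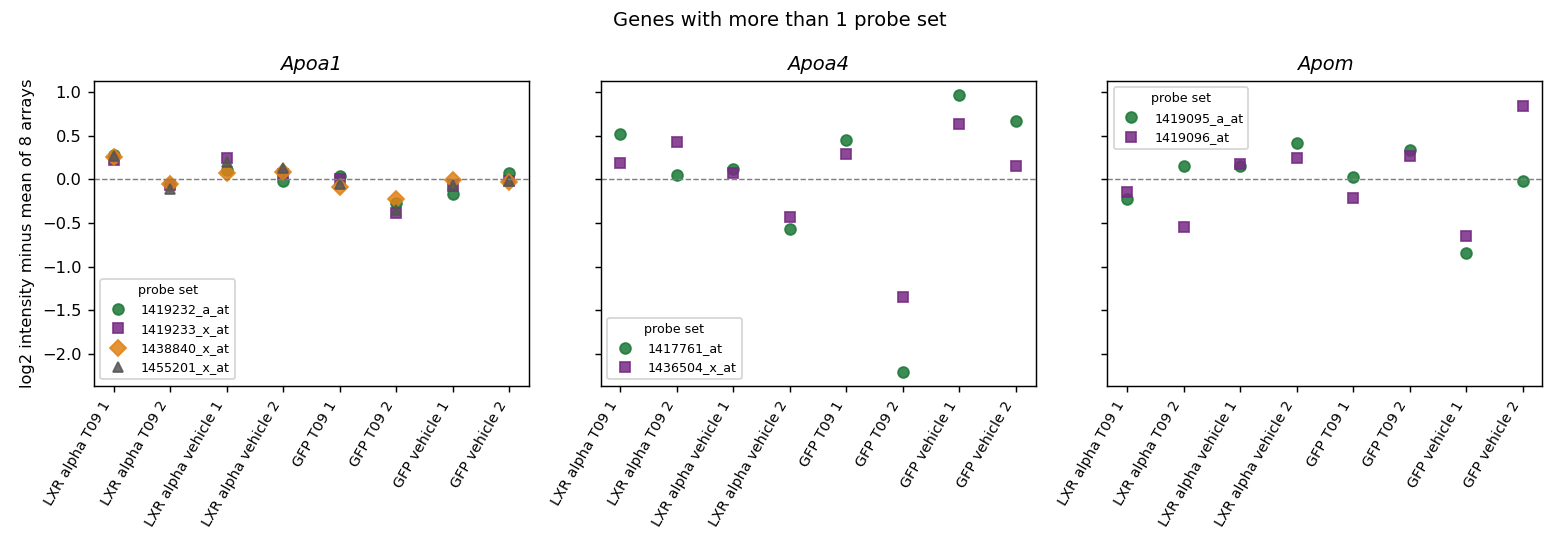
Log2 intensity minus its mean over the 8 arrays (vertical axis) for every probe set of Apoa1, Apoa4 and Apom, the genes measured by more than 1 probe set, on each array. The 4 probe sets of Apoa1 and the 2 of Apoa4 move in parallel over the arrays (Pearson r from 0.815 to 0.973 for Apoa1 and 0.955 for Apoa4), and the 2 of Apom do so less (0.516).

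Among the regulators of lipoprotein lipase, Apoc2 varied most, over 1.75 on the log2 scale. Apoc2 is the cofactor that lipoprotein lipase needs. It had an intensity of 2071 and 2275 with LXR alpha and T0901317, 2103 and 979 with LXR alpha and vehicle, 2692 and 1154 with GFP and T0901317, and 1983 and 3300 with GFP and vehicle. Groups that differ in 1 factor overlapped in all 4 comparisons. The log2 difference was -0.83 (SE 0.52) for LXR alpha vehicle and -0.54 (SE 0.52) for GFP T0901317, each against GFP vehicle. The first was -1.39 without LXR alpha vehicle replicate 1 and -0.28 without its replicate 2, and leaving out single arrays gave -1.15 to 0.074 for the second. Apoc3, which inhibits lipoprotein lipase and slows particle uptake, had 5725 and 6606, 7340 and 6196, 7999.8 and 6420.1, and 4590.0 and 6606 in the same order of groups. Its log2 differences against GFP vehicle were 0.29 (SE 0.25) for LXR alpha vehicle and 0.38 (SE 0.25) for GFP T0901317, with overlapping arrays in both. They were 0.030 and 0.12 without GFP vehicle replicate 1, and 0.55 and 0.64 without its replicate 2.

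Apoa5, which promotes lipolysis by lipoprotein lipase, had an intensity of 6091 and 5532 with LXR alpha and T0901317, 7131 and 6433 with LXR alpha and vehicle, 5809 and 5384 with GFP and T0901317, and 5182 and 5220.1 with GFP and vehicle. Both LXR alpha vehicle arrays were the highest of the 8 and both GFP vehicle arrays the lowest. With vehicle, LXR alpha against GFP gave a log2 difference of 0.38 (SE 0.18; 95% interval -0.037 to 0.80; adjusted p = 0.963 by limma). T0901317 against vehicle gave 0.10 (SE 0.18) with GFP and -0.22 (SE 0.18) with LXR alpha. Apoc1, which slows receptor uptake of remnants, was the steadiest member: 9458 and 9728, 10289 and 9821, 9564 and 8832, and 8750.3 and 8755 in the same order of groups. Its log2 difference for LXR alpha against GFP was 0.20 (SE 0.16) with vehicle. For T0901317 against vehicle, averaged over both transgenes, its 95% interval was -0.27 to 0.27.

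Apoe, the ligand by which liver takes up remnant particles and the member best known as an LXR target in macrophages, had an intensity of 20489 and 18321 with LXR alpha and T0901317, 20855 and 22931 with LXR alpha and vehicle, 19585.5 and 16137 with GFP and T0901317, and 23450 and 19928 with GFP and vehicle. With each transgene both T0901317 arrays were below both vehicle arrays. The log2 difference of T0901317 against vehicle was -0.28 (SE 0.18) with GFP, -0.17 (SE 0.18) with LXR alpha, and -0.23 (SE 0.127; 95% interval -0.53 to 0.074; adjusted p = 0.291 by limma) averaged over both. The averaged value was -0.13 with the β-actin ratio in the model, and 3 of the 4 T0901317 arrays had a high ratio. Groups that did not overlap with T0901317 lower in both transgenes were found for 17.7% of all tested probe sets. LXR alpha against GFP with vehicle gave 0.017 (95% interval -0.41 to 0.44). Macrophages also make Apoe: all 12 macrophage markers were lower in LXR alpha vehicle livers than in GFP vehicle livers, with a median log2 difference of -1.34. Their summed intensity was 11389 and 10419 with LXR alpha and T0901317, 10206 and 4003 with LXR alpha and vehicle, 9416 and 16289 with GFP and T0901317, and 14099 and 15430 with GFP and vehicle. Their part in the Apoe values was not tested.

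Counted by gene, with 1 probe set for each, 7 of the 10 members were higher and 3 lower with LXR alpha and vehicle than with GFP and vehicle, with a median log2 difference of 0.15, against 0.050 over all tested probe sets, of which 59.8% were higher. Groups did not overlap for 3 members that were higher (Apoa5, Apoc1 and Apom) and 2 that were lower (Apoa4 and Apob), against 30.9% and 13.5% of all probe sets. For GFP T0901317 against GFP vehicle, 5 members were higher and 5 lower, with a median of 0.0015 against -0.047 over all probe sets, of which 45% were higher. There 3 were higher without overlap (Apoa5, Apoc1 and Apom) and 3 lower (Apoa4, Apob and Apoe), against 23.2% and 35.2% of all probe sets. With LXR alpha, T0901317 against vehicle left 5 higher and 5 lower, with a median of -0.027 against -0.053 over all probe sets, of which 44.5% were higher. None was higher without overlap and 4 were lower (Apoa5, Apoc1, Apoe and Apom), against 20% and 28.4% of all probe sets. Between the 2 T0901317 groups every member overlapped, 7 being higher and 3 lower with LXR alpha, against 57.5% of all probe sets that were higher. Over all probe sets, 10.6% were higher and 8.72% lower without overlap. Averaged over transgenes, 6 members were higher with T0901317 (45.7% of all probe sets), averaged over treatments 8 were higher with LXR alpha (59% of all probe sets), and 5 had an interaction above 0 (46.8% of all probe sets). Each group enters 2 or more of these comparisons, so their counts are not independent.

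Apoa5, Apoc1 and Apom, 3 of the 10, had non-overlapping groups in opposite directions: T0901317 arrays were above vehicle arrays with GFP and below them with LXR alpha. For Apom this held for 1 of its 2 probe sets. This combination was looked for after the values had been seen. It was met by 3 of the 15 member probe sets and by 1.52% of all tested probe sets. For Apoc1 the log2 differences of T0901317 against vehicle were 0.070 with GFP and -0.068 with LXR alpha, each smaller than its SE of 0.16. For Apoa5 they were 0.10 and -0.22 (SE 0.18), and for Apom 0.61 and -0.32 (SE 0.33), in the same order. The interaction did not pass the test for any of the 3, with log2 values of -0.33 (SE 0.25), -0.14 (SE 0.23) and -0.93 (SE 0.46) for Apoa5, Apoc1 and Apom, and each had an adjusted p of 1.000 by limma. The opposite combination, lower with GFP and higher with LXR alpha, was met by none of the members and by 1.41% of all tested probe sets.

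**Figure D3:**
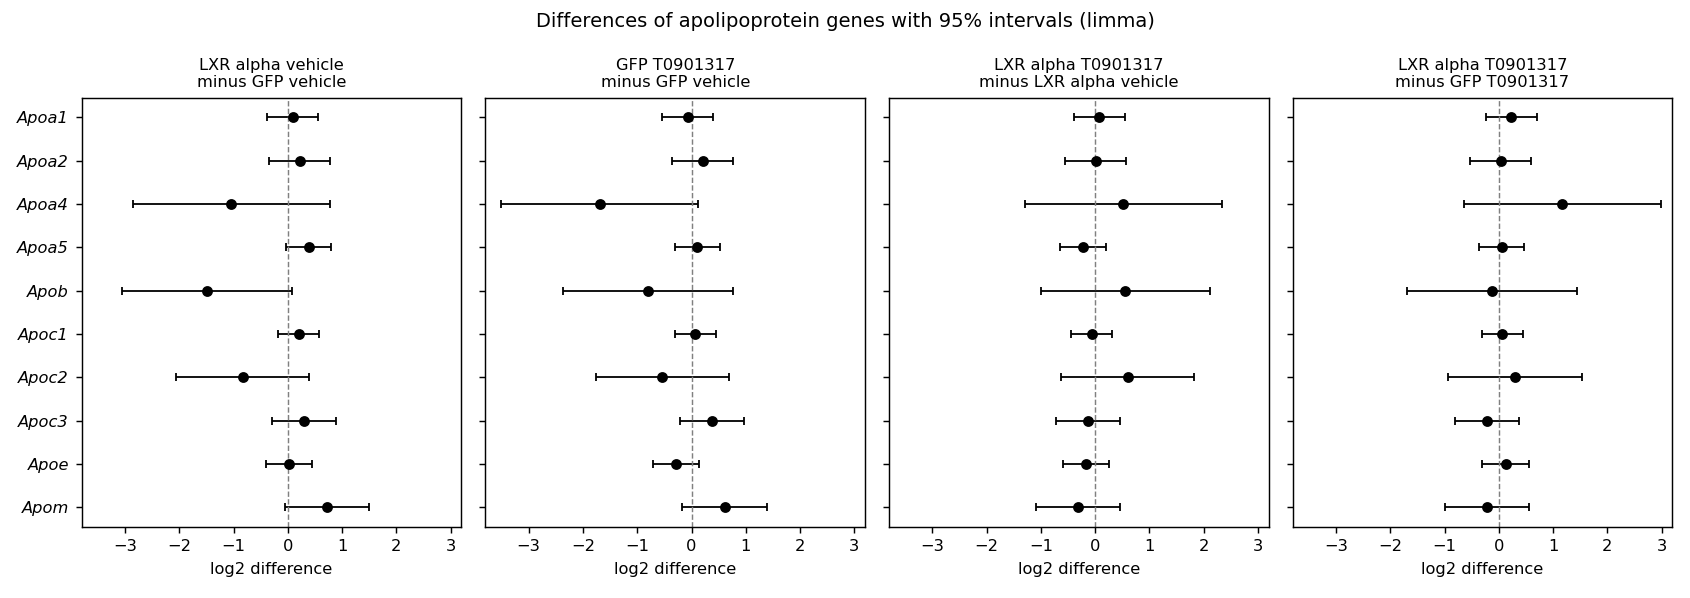
Log2 difference of each member in the 4 comparisons of groups that differ in 1 factor, with 95% intervals from limma as bars. All intervals include 0; they are narrowest for Apoc1 (SE 0.160) and widest for Apoa4 (SE 0.766).

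Members that lie side by side did not move as blocks. Apoa1, Apoc3, Apoa4 and Apoa5 are neighbours on chromosome 9, and over the 8 arrays their pairwise Pearson r ran from -0.197 to 0.556. Apoc2, Apoc1 and Apoe are neighbours on chromosome 7, and theirs ran from -0.105 to 0.174. The closest pairs were Apoa5 with Apoc1 (0.891) and Apoa2 with Apoc3 (0.839), each on different chromosomes, and the lowest was Apoa5 with Apob (-0.764). Among all tested genes, the patterns most like that of Apoe were those of Fastk (0.986), Dhdds (0.971) and Nop58 (0.944). The patterns most like that of Apoa5 were those of Sap30l (0.917), Apoc1 (0.891) and Mdm4 (0.876). These are correlations over 8 arrays that share differences of group and of RNA quality, and are given as a description.

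Around the members, lists of other apolipoproteins and their partners, of genes for assembly and secretion, of genes for remodelling and clearance and of transcription factors were read with the same fit. No gene of the 4 lists passed the adjusted threshold in any comparison, so the genes below are named with unadjusted values. Among 11 other apolipoproteins and partners, which include the HDL enzyme Pon1 and the receptor Apobr, 10 were higher with LXR alpha and vehicle than with GFP and vehicle. The median log2 difference of the 11 was 0.19, against 0.050 over all tested probe sets, of which 59.8% were higher. For T0901317 against vehicle with LXR alpha, 10 were lower (median -0.49, against -0.053 over all tested probe sets, of which 44.5% were higher). For T0901317 with LXR alpha, Apon had -1.19 (unadjusted p = 0.00167 by limma) and Saa4, a constitutive HDL protein, had -1.70. The acute-phase HDL proteins Saa1 and Saa2 are near-identical genes whose probe sets may share signal. For T0901317 against vehicle with GFP they had 2.58 (SE 1.06) and 3.27 (SE 1.17), with unadjusted p of 0.0459 and 0.0272 by limma. With LXR alpha they had -0.73 and -1.52, with unadjusted p of 0.516 and 0.236 by limma. The 2 LXR alpha vehicle arrays lay far apart, at 3557 and 18151 for Saa1 and 2575 and 19303 for Saa2.

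Among 14 genes of assembly and secretion, 10 were higher and 4 lower with LXR alpha and vehicle than with GFP and vehicle. The median was 0.077, against 0.050 over all tested probe sets, of which 59.8% were higher. Apobec1, the enzyme that edits Apob RNA, had -1.05 there (unadjusted p = 0.00236 and adjusted p = 0.580 by limma). Its intensity was 37.1 and 26.1 with LXR alpha and vehicle, and 71.3 and 58.6 with GFP and vehicle. All 12 macrophage markers were lower in this comparison (median log2 difference -1.34), and their part in the Apobec1 value was not tested. Mttp, the transfer protein that loads lipid onto apolipoprotein B, had 0.062 there. Among 12 genes of remodelling and clearance, T0901317 against vehicle with LXR alpha gave 6 higher and 6 lower, against 44.5% of all tested probe sets that were higher. Pltp, the phospholipid transfer protein, had 1.97 and Lpl, lipoprotein lipase itself, had 2.13, with unadjusted p of 0.000411 and 0.00811 by limma. Both were low with LXR alpha and vehicle, at -1.42 and -1.41 against GFP vehicle. Pltp read 1505 and 821 with LXR alpha and vehicle, 3055 and 2888 with GFP and vehicle, and 3358 and 3604 with GFP and T0901317. Lpl read 1161 and 288, 1640 and 1440, and 1987 and 1728 in the same order. Markers of other liver cells moved for T0901317 against vehicle with LXR alpha. There 7 of 8 stellate and matrix markers were higher (median log2 difference 1.31), as were 6 of 7 endothelial (0.72) and 10 of 12 macrophage markers (0.83). All 7 hepatocyte markers were lower (-0.23). Their part in the values of Pltp and Lpl was not tested. Abca1, the exporter that loads cholesterol onto apolipoprotein A-I and a known LXR target, had 0.94 with LXR alpha and 1.17 with GFP, and 1.05 (adjusted p = 0.069 by limma) averaged over both. For T0901317 against vehicle, the median log2 difference of the remodelling list was 0.24 with LXR alpha and 0.21 with GFP, and that of the members was -0.027 with LXR alpha and 0.0015 with GFP.

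Of 19 transcription factors, 16 were higher with LXR alpha and vehicle than with GFP and vehicle, as were 59.8% of all tested probe sets. The median was 0.45, against 0.050 over all tested probe sets. The 16 include Nr1h3, the mouse gene of the delivered receptor, and how far its probe set reads the human transgene was not tested. In this comparison 6 of 7 hepatocyte markers were higher (median 0.35), and 12 of 12 macrophage (-1.34), 7 of 8 stellate and matrix (-0.86) and 6 of 7 endothelial markers (-0.51) were lower; their part in the list was not tested. Hnf4a, the nuclear receptor that drives many apolipoprotein genes, had 0.68 for LXR alpha vehicle against GFP vehicle, and Foxa3, a forkhead factor of hepatocytes, had 1.01. With GFP, T0901317 against vehicle gave 1.80 for Srebf1, the activator of fatty acid synthesis and an LXR target, and 1.09 for Mlxipl, the glucose-responsive activator of the same pathway. Nr0b2, a repressor that answers to bile acids, had -0.94 with GFP and -1.50 with LXR alpha, both for T0901317 against vehicle. The RNA quality values given above move with every T0901317 comparison, and their part in these lists was not tested. Apol6, Apol8, Lipc, Gpihbp1, Cetp and Nr1h2 are not analysed here.

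**Figure D4:**
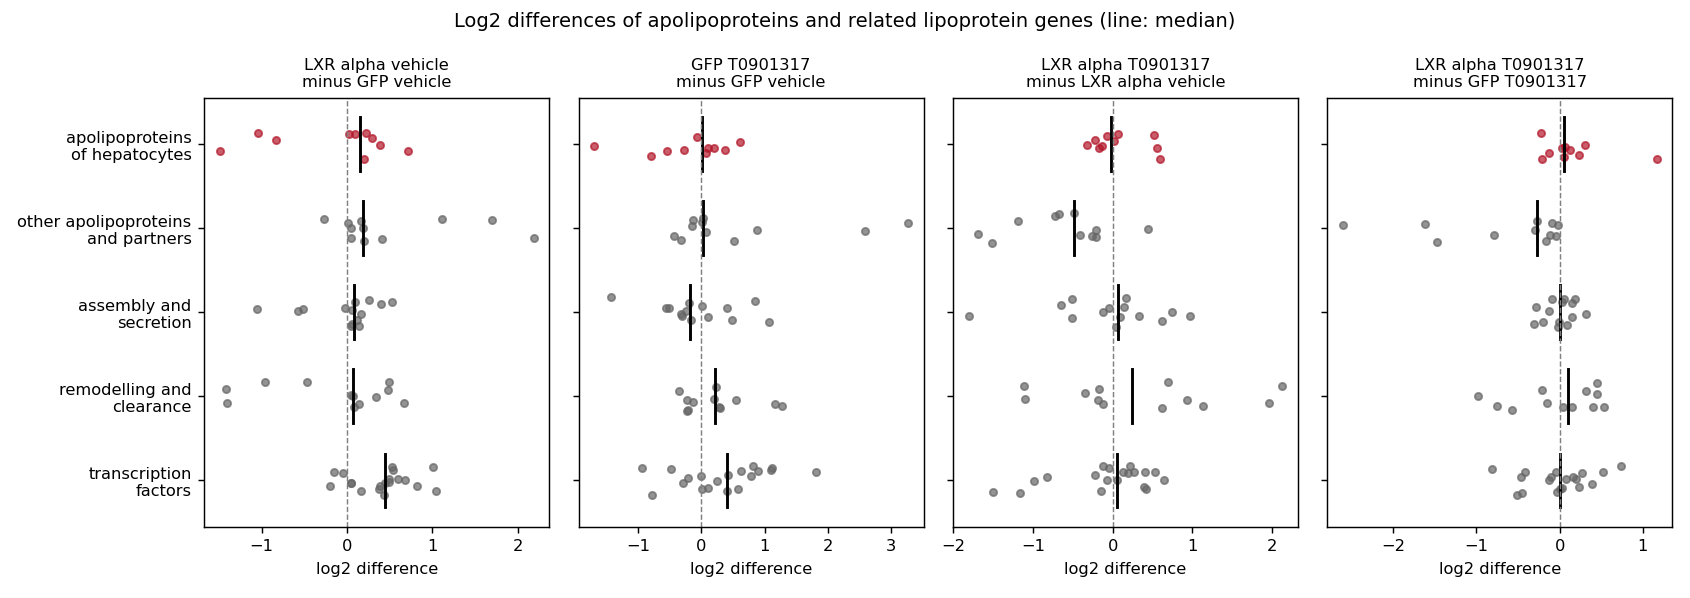
Log2 differences of single genes in the members and the 4 surrounding lists, 1 point per gene and a line at each list's median, in the comparisons of groups that differ in 1 factor, with a horizontal scale of its own in each panel. The members centre near 0 in each comparison. For LXR alpha vehicle against GFP vehicle, 16 of 19 transcription factors lie above 0, as do 59.8% of all tested probe sets.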

How the data were processed

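The authors deposited an intensity for each probe set on each array, and its range shows positive values on a linear scale. How probes were summarised and scaled is not given in the sources here. No sample column was left unused. Groups and replicate numbers came from the labels. The gene deleted in all mice, and a few listed genes, are not reported here. Of 22690 probe sets, 64 were controls. Of the rest, 20380 had 1 gene symbol, 691 several and 1555 none, and 20364 symbols were updated by Entrez ID.

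Values under 7.50, the 20th percentile, were set to it before log2 transformation, and probe sets with a mean above the 30th percentile were tested. Group means of the 8 arrays were fitted with limma 3.58.1 in R 4.3.3 (eBayes with an intensity trend, 2.93 prior degrees of freedom) and adjusted by Benjamini-Hochberg. The fit was tested on simulated data. The number of arrays limits the precision. A gene was represented by its brightest probe set not ending in x_at. All members were named, with at most 4 genes per list and comparison by smallest p. Mttp and Nr1h3 were named outside this rule. So were Saa1 and Saa2 for T0901317 with LXR alpha, and Pltp and Lpl for T0901317 with GFP. The members and lists were chosen with earlier results of these data known. Promoters came from RefSeq, build GRCm38.p6. Alternatives changed the floor, filter, trend, scaling, arrays fitted, RNA quality and replicate block.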

Additional observations from a re-analysis of the deposited data

How the results depend on the processing

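The count of apolipoprotein probe sets called was 0 in all 118 alternative fits of the 7 comparisons, the replicate block among them. Deviations of same-numbered arrays correlated between -0.138 and 0.247. With 2 arrays in a group, these values cannot tell whether same-numbered arrays were handled together. Over all probe sets, the averaged T0901317 comparison gave 90 calls, 17 with the replicate block, 4 to 111 over all settings other than leaving out single arrays, and 0 to 1506 leaving out single arrays. T0901317 against vehicle with LXR alpha gave 4, then 0 to 14 and 0 to 474; with GFP it gave 0, then 0 to 2 and 0 to 43. LXR alpha against GFP gave 1, then 0 to 11 and 1 to 32 with vehicle; 0, then 0 to 1 and 0 to 5 with T0901317; and 1, then 0 to 7 and 0 to 31 averaged. The interaction gave 1, then 0 to 8 and 0 to 24. Of 70 member differences, the 50 larger than 0.5 SE were followed over 844 alternative values; 19 values, in 14 differences, changed sign, and the cause was not tested. For T0901317 against vehicle with LXR alpha, Apob was -0.53 with the β-actin covariate, -0.58 without the 3 arrays of high ratio, and -0.58 to 1.70 leaving out single arrays. Averaged over transgenes, Apom was -0.068 with the covariate and -0.057 to 0.35 leaving out single arrays, Apoa2 -0.033 to 0.25, Apoa4 -1.25 to 0.073 and Apoc3 -0.0077 to 0.25. Leaving out single arrays also gave Apoa2 -0.060 to 0.50 for LXR alpha vehicle against GFP vehicle, Apoa2 -0.079 to 0.49 and Apoc2 -1.15 to 0.074 for GFP T0901317 against GFP vehicle. For LXR alpha T0901317 against GFP T0901317 it gave Apoa4 -0.16 to 2.49, Apoc2 -0.31 to 0.91 and Apoe -0.016 to 0.26. For LXR alpha against GFP averaged over treatments it gave Apoa2 -0.015 to 0.27 and Apoc2 -0.57 to 0.039, and for the interaction Apoa2 -0.47 to 0.091. The single arrays behind these changes of sign were GFP vehicle replicate 1 (Apoa2, Apoc3, Apom), GFP T0901317 replicate 2 (Apoa4, Apoc2, Apoe), GFP T0901317 replicate 1 and LXR alpha vehicle replicate 2 (Apoc2), LXR alpha vehicle replicate 1 (Apoa2) and LXR alpha T0901317 replicate 2 (Apob).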
